A study of Mus musculus with 8 samples.

Results

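In BV2 cells, a mouse microglial line, 2026 regions of open chromatin carried an ATAC-seq peak under hypoxia, in co-culture with glioma cells and under both together, and carried none in cells grown alone in normoxia. ATAC-seq uses the Tn5 transposase to insert sequencing adapters into accessible DNA, so a peak marks a stretch where many cells of the library were cut. Overlapping peaks of all 8 deposited lists were merged on chromosomes 1 to 19 and X into 40770 regions. A region was kept when all 6 lists of 3 groups had a peak in it, by at least 1 bp, and neither list of the fourth group did, which left 4.97% of the merged regions. The regions were chosen by these peak calls, so their absence from the normoxic monoculture lists is a description and was given no test.

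The 4 groups had 2 biological replicates each, per the labels. Monoculture BV2 cells were kept at 21% oxygen (monoculture normoxia, the group without these peaks) or below 0.1% oxygen (monoculture hypoxia) for 16 h. Co-culture BV2 cells were seeded onto GL261, a mouse glioma line, in a ratio of 1:2, and were then kept at 21% oxygen (co-culture normoxia) or below 0.1% (co-culture hypoxia) for 16 h. All cells were fixed with formaldehyde, sorted for the leukocyte marker CD45 or for GFP, and counted to 50000 per library, and the labels do not say which sort a given library came from. The labels name no genetic change in any group, and both lines are established, so the replicates are not animals. By the rule, all 2026 regions had a peak in both libraries of monoculture hypoxia. These libraries by their labels held no GL261 cells, and whether such cells added to the co-culture peaks was not tested. A weaker signal in pooled cells can come from fewer cells with open chromatin or from less opening per cell, and these lists cannot tell the 2 apart.

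Most chromatin accessible in a cell lies at promoters and enhancers. Promoters rich in CpG dinucleotides are open in nearly all cells, while enhancers far from genes carry the stamp of the cell type, which in microglia is set by the ETS factor PU.1 with its partners. At low oxygen the prolyl hydroxylases that mark HIF-1 alpha for degradation lose their substrate, and HIF-1 then binds the core of the hypoxia response element, ACGTG or GCGTG, near genes of glycolysis, angiogenesis and growth arrest. Several histone demethylases also need oxygen. Microglia in contact with glioma cells are known to take up signals such as TGF-beta and to change their lipid handling and phagocytosis.

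Of the 2026 regions, 719 held a transcription start of the promoter table used here, and the start windows of 6 of them are printed because they carry the results that follow. Camsap1 and Ppp1r12b had the highest ranks, Pdk1, Ddit4 and P4ha1 are the hypoxia targets among the regions, and Trem2 is a microglial receptor whose promoter is poor in CpG. Each window runs from 250 bases before the start to 50 after it, is taken from RefSeq (GRCm38.p6), is written 5′ to 3′ on the strand of the gene, and has in capitals every match to ACGTG or GCGTG on either strand, so that CACGT and CACGC are matches on the other strand.
Camsap1, chr2:25983233-25983532, minus strand: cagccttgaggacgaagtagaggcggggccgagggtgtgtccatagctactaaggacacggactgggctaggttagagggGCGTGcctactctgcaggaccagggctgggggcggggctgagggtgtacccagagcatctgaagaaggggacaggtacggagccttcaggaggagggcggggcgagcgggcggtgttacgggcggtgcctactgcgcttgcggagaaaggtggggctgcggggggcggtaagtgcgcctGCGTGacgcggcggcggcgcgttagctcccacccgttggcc
Ppp1r12b, chr1:134955891-134956190, minus strand: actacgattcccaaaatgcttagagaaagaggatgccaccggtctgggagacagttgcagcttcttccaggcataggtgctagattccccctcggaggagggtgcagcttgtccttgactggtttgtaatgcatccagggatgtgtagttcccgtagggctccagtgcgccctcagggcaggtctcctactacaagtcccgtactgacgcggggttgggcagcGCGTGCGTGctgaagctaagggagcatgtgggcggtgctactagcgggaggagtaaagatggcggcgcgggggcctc
Pdk1, chr2:71872974-71873273, plus strand: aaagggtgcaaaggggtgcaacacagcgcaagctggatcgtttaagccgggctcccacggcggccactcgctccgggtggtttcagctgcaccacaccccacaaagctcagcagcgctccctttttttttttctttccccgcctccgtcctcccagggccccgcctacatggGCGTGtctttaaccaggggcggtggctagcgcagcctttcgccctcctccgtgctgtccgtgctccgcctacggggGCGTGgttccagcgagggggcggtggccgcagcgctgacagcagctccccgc
Ddit4, chr10:59951721-59952020, minus strand: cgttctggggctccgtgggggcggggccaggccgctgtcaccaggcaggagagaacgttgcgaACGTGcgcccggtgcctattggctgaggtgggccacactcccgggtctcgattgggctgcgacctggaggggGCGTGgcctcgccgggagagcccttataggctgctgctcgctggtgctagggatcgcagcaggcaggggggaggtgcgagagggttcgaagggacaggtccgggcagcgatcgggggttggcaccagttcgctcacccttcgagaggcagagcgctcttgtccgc
P4ha1, chr10:59323046-59323345, plus strand: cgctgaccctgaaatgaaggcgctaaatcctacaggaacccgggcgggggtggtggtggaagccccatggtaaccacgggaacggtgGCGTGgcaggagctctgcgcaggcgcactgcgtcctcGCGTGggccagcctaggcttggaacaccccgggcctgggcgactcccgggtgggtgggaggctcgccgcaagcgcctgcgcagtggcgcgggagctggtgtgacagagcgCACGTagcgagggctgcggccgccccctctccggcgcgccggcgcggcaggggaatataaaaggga
Trem2, chr17:48346151-48346450, plus strand: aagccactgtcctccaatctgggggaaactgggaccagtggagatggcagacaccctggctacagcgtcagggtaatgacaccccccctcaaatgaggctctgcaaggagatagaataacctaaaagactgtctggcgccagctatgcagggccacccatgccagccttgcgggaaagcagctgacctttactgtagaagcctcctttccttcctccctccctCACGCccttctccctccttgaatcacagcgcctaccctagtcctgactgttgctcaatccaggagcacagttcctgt

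The number of matches was 2 in Camsap1, Ppp1r12b, Pdk1 and Ddit4, 3 in P4ha1 and 1 in Trem2. These windows were picked for the genes, and the windows of Abhd17a and Rnf181 (among the 10 highest ranked), Nfkbia, Tfeb and Vim had none. Over all 719 start windows 65.9% held a match, against 44.0% of all windows of the table and 68.2% at regions called in all 8 lists. The share of G and C was 68.0% in Camsap1, 59.0% in Ppp1r12b, 66.0% in Pdk1, 69.0% in Ddit4, 70.3% in P4ha1 and 56.0% in Trem2. The ratio of observed to expected CpG was 0.221 in Trem2 and between 0.632 (Ppp1r12b) and 0.882 (P4ha1) in the other windows. The median summit of the 6 lists lay before the start in 5 windows, at positions from -69 bp in Pdk1 to -180 bp in Ddit4, and 32 bp after it in Trem2.

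In the full lists no other group was missing peaks to this extent. Regions called in every other list and in neither list of 1 group numbered 17 for monoculture hypoxia (0.0417% of merged regions), 19 for co-culture normoxia (0.0466%) and 35 for co-culture hypoxia (0.0858%). The lists of monoculture normoxia were also the shortest, with 13333 and 9910 peaks against 21633 to 29658 in the other 6. Their estimated background coverage was the lowest too, 0.758 and 1.034 fragments per position against 1.072 to 1.448. Replicate 2 of monoculture normoxia and replicate 1 of co-culture normoxia had nearly the same coverage (1.034 and 1.072), with 9910 and 21790 peaks, and the regions had a median of 22 fragments at the summit in the latter. When every list was scaled to the lowest coverage, 1823 regions met the rule (4.83% of 37761) and 89.5% of the 2026 were overlapped by them. When every list was instead cut to its 9910 strongest peaks, the length of the shortest, 220 regions met the rule (1.11% of 19787), and the same count was 153 for monoculture hypoxia, 36 for co-culture normoxia and 256 for co-culture hypoxia.

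Among the 11725 regions called in all 6 of the other libraries, 6372 (54.3%) were also called in both lists of monoculture normoxia and 2026 (17.3%) in neither. Replicate 1 alone had 2455 of them (20.9%) and replicate 2 alone 872 (7.44%). Just outside the rule lay 2032 regions called in 5 of the 6 libraries and in neither list of monoculture normoxia. Co-culture normoxia replicate 2 was the list missing from 551 of these (27.1%), and co-culture hypoxia replicate 1, the longest list, from 59 (2.90%).

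Ranks within each list describe how strong these peaks were where they were called. The percentile of a region is the rank of its best peak by the deposited −log10 p within its own list, with 100 for the strongest peak. Percentiles from lists of different length describe a region within each list, and differences between lists were not tested on them. Median percentiles of the 2026 regions were 46.8 and 45.4 in monoculture hypoxia, 44.5 and 44.9 in co-culture normoxia, and 62.8 and 53.7 in co-culture hypoxia, with medians of 26, 27, 22, 24, 37 and 30 fragments at the summit in the same order. Regions called in all 8 lists had median percentiles of 75.1 to 81.7 in the same 6 lists, and regions called in 1 list of monoculture normoxia 60.3 to 70.4. Within single regions, both co-culture hypoxia libraries stood above the other 4 in 613 of the 2026 (30.3%) and below them in 86 (4.24%). All 4 hypoxic libraries stood above both of co-culture normoxia in 368 (18.2%), all 4 co-culture libraries above both of monoculture hypoxia in 338 (16.7%), and both co-culture normoxia libraries above the other 4 in 86 (4.24%). These shares are the background for the orders given for single regions below, none of which was tested. The orders were not counted in regions outside the 2026, so the shares cannot show whether an order is particular to these regions. The regions absent from monoculture normoxia were thus peaks of middle rank, below both other sets in each of the 6 lists. Their lowest percentile over the 6 lists had a median of 23.8 (quartiles 12.9 and 40.7), and 327 of them (16.1%) stayed at 50 or above in every list, against 64.0% of the regions called in all 8.

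**Figure D1:**
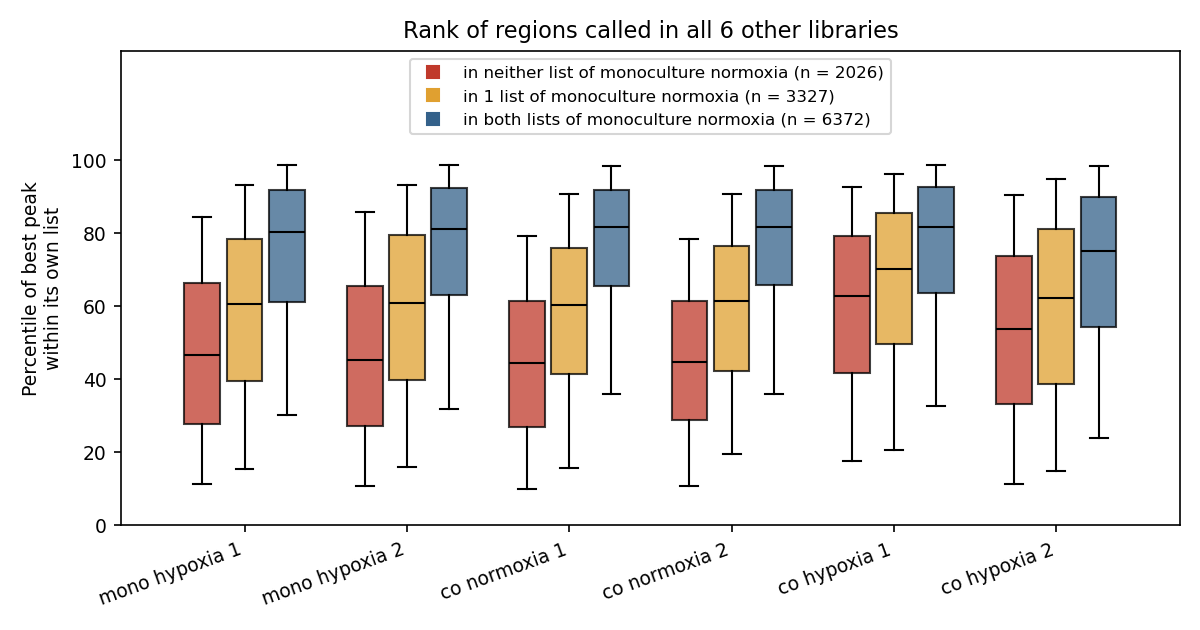
Percentile of the best peak of each region within its own list (y axis) in the 6 libraries of the other groups (x axis), with boxes for quartiles, lines for medians and whiskers from the 5th to the 95th percentile of the regions. In each library the regions in neither list of monoculture normoxia sit lowest (medians 44.5 to 62.8) and those in both lists highest (medians 75.1 to 81.7).

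The share of regions absent from monoculture normoxia fell steadily with rank. When the 11725 regions called in all 6 lists were ordered by their lowest percentile and divided into 10 bins of equal size, the regions absent from monoculture normoxia made up 42.6% of the weakest bin (500 of 1173), 35.0% of the next, 16.0% of bin 5, 5.63% of bin 8 and 1.62% of bin 9. The strongest bin held 1 of them among 1173 regions, the promoter of Camsap1. Both the rule and this order rest on peak calls, so the trend is a description.

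**Figure D2:**
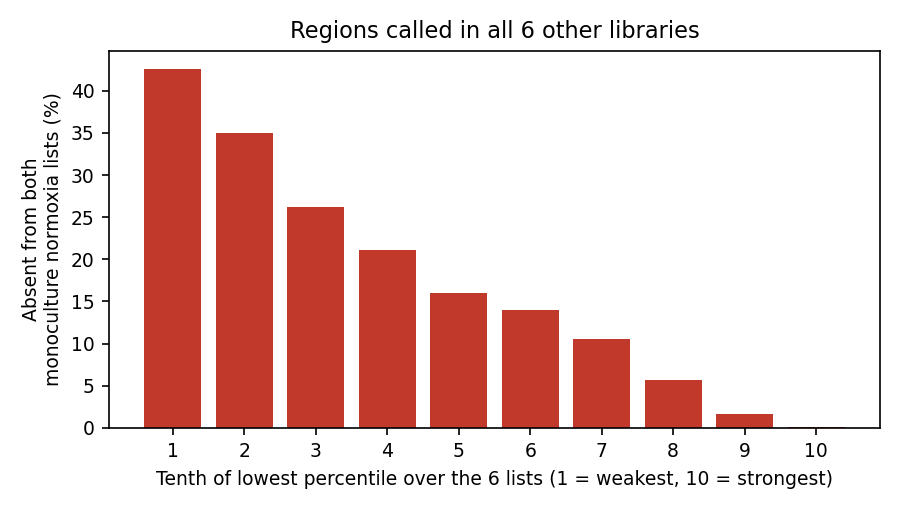
Percent of regions absent from both lists of monoculture normoxia (y axis, bars from 0) in 10 bins of equal size by lowest percentile over the other 6 lists (x axis, 1 the weakest). The bars fall from 42.6% in the weakest bin to 0.0853% in the strongest.

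The 10 regions with the highest lowest percentile lay at or in genes of varied function. The strongest, chr2:25983163-25983822, covers the start of Camsap1, whose product binds the minus ends of microtubules. Its percentiles were 97.2 and 94.9 in monoculture hypoxia, 95.7 and 95.3 in co-culture normoxia and 99.4 and 98.8 in co-culture hypoxia, with 87, 74, 66, 80, 199 and 175 fragments at the summit. All 6 libraries placed it among their strongest peaks, and the co-culture hypoxia pair held the most fragments.

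Ppp1r12b, a regulatory subunit of a protein phosphatase acting on myosin, followed with chr1:134955686-134956415 over its start and percentiles of 92.4, 87.8, 91.6, 86.9, 96.7 and 92.0 in the same order of libraries. Regions over a start also stood at Gatad2a, a subunit of the NuRD remodelling complex, at Dnm2, the dynamin that pinches off endocytic vesicles, at Abhd17a, an enzyme that removes palmitate from proteins, and at Rnf181, a ubiquitin ligase. The region at Cdc25c, the phosphatase that starts mitosis by activating CDK1, overlapped an end of that gene on chromosome 18 (percentiles 82.2 to 97.9). Another lay 413 bp inside an end of Prrg2 and 663 bp from the start of Prr12. In Itprid2 the region was 36820 bp from the nearer end of the gene and covered the start of the gene model Gm46751. At Msl3, a subunit of the complex that acetylates histone H4, it lay 109 bp from an annotated start on chromosome X.

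All 10 were among the 9910 strongest peaks of each of the 6 libraries. Both co-culture hypoxia libraries gave higher percentiles than the other 4 in all but Ppp1r12b, where they overlapped, and Msl3, where they were the lowest, with 82.8 and 80.2 against 87.0 to 91.9. The former order was found in 30.3% of all 2026 regions and the latter in 4.24%. At the other end of the rule stood the starts of Ei24, Rnf157 and Atf1, a CREB-family transcription factor, each of which entered through a peak at the edge of 1 list. The lowest percentiles were 0.116 for Ei24 in monoculture hypoxia replicate 2, 0.0841 for Rnf157 and 0.0287 for Atf1, both in replicate 1 of that group, where the last 2 peaks held 9 fragments each. Just outside the rule, regions at the start of Rbm42, inside Wdr59 and 20965 bp from Olfr877 had percentiles of 84.0 or more in 5 lists and no peak in the sixth. The missing lists were co-culture normoxia replicate 1 for Rbm42, replicate 2 of that group for Wdr59, and co-culture hypoxia replicate 2 for the region near Olfr877.

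Position was not used by the rule. Of the 2026 regions, 847 lay at most 1 kb from either end of a protein-coding gene, here called gene ends, which is 41.8% (95% exact binomial interval 39.6 to 44.0, counting error only), against 24.6% of all merged regions. Regions called in all 8 lists had 50.6% there, regions called in 1 list of monoculture normoxia 43.6%, the 2032 regions called in 5 of the 6 lists and in neither of monoculture normoxia 30.5%, regions called only in the 4 co-culture lists 30.9%, and regions called only in the 4 hypoxic lists 8.83%. A further 621 (30.7%) lay elsewhere in a gene and 558 (27.5%) outside genes. The share of the 2026 regions thus lay between those sets, above the 2032 regions just outside the rule, and no difference between the sets was tested. Exons and introns were not used here.

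**Figure D3:**
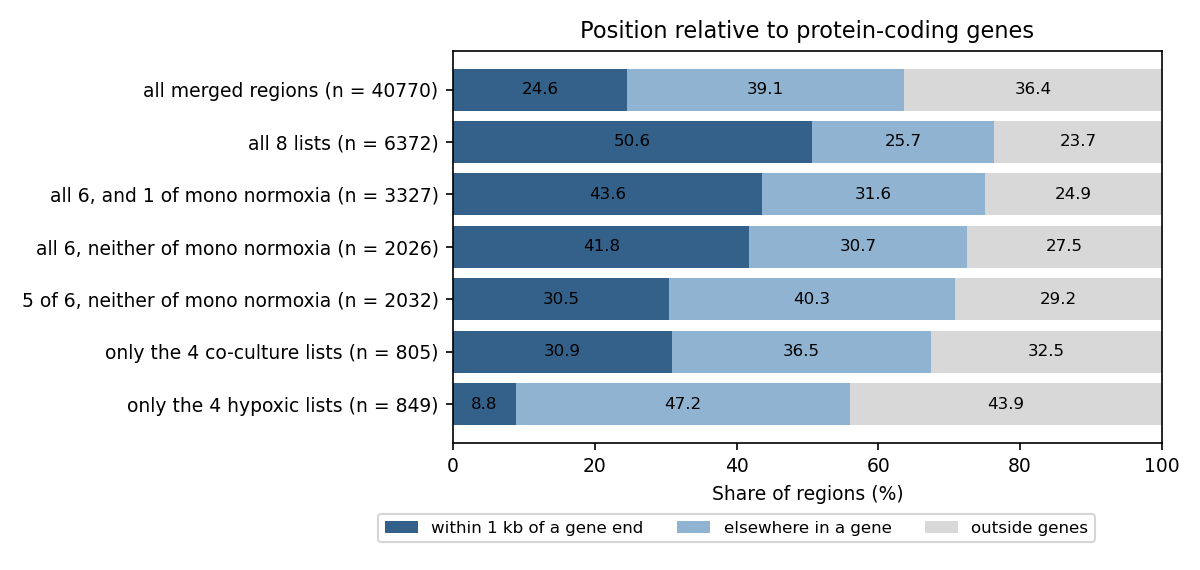
Percent of regions (x axis) at gene ends (at most 1 kb away), elsewhere in a gene, or outside genes, for 7 sets of regions (y axis, with the number of regions). The set absent from monoculture normoxia has 41.8% at gene ends, between the 50.6% of regions called in all 8 lists and the 8.83% of those called only in the 4 hypoxic lists.

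Starts were counted separately, from a promoter table that gives their strand and also holds non-coding genes and starts inside genes. It lacks the starts of some protein-coding genes, so these counts may be too low. Among the 1975 regions outside chromosome 18, 783 (39.6%) lay within 1 kb of a start of that table, and 29 (1.47%) lay within 1 kb of the 3′ end of a protein-coding gene with a start in the table and of no start. Starts on both strands, as at bidirectional promoters, were held by 98 of the 719 regions with a start (13.6%), against 21.8% of such regions called in all 8 lists and 18.7% of those called in 1 list of monoculture normoxia. The median summit lay at -48.5 bp from the start, and 70.1% of the 719 had it upstream, against 73.4% in all 8 lists.

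The regions had a median width of 806 bp (quartiles 663 and 993), against 988 bp for regions called in all 8 lists and 615 bp for all merged regions. Summits of the 6 lists spread over a median of 127 bp within a region, and 769 regions (38.0%) had all 6 summits within 100 bp. Few lay beside a peak of monoculture normoxia. The nearest such peak was a median of 28389 bp away, and 30 regions (1.48%) had it within 1 kb. The widest, chr10:22212000-22410993, spans 198994 bp over H60b and Raet1d, ligands of the activating receptor NKG2D in a cluster of similar genes, with percentiles from 55.8 to 82.0. How reads of such near-identical copies were placed was not tested.

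Among chromosomes, the regions made up the largest share of regions called in all 6 libraries on chromosome 10, 27.4% (116 of 423), and the smallest on chromosome 12, 11.4% (63 of 553). Chromosome X had 13.8% (46 of 333).

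The start windows were CpG-rich. The 719 regions with a start had a median G and C share of 61.3% and a CpG ratio of at least 0.6 in 78.7% of windows, against 61.3% and 79.8% for regions called in all 8 lists and 53.0% and 36.0% for all 32585 windows of the table. By these measures the promoters absent from monoculture normoxia resembled the promoters called everywhere, and no test was made across promoters. The window of Trem2 printed above is therefore of the minority type.

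Short motifs were counted on both strands of each window. The hypoxia response element core (ACGTG or GCGTG), which overlaps the E-box CACGTG, was found in 65.9% of the 719 windows, in 68.2% of windows at regions called in all 8 lists, in 69.6% at regions called in 1 list of monoculture normoxia, and in 44.0% of all windows. SP and KLF factors (GGGCGGGG) had a match in 39.6%, against 38.4% in all 8 lists and 17.7% of all windows. ETS factors (CCGGAAG) had 19.2%, against 20.9% and 8.92%. NF-Y (CCAAT) had 37.8%, against 47.4% and 37.6%, the widest gap between the regions and those called in all 8 lists.

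Motifs of the inducible and lineage factors were rare in the 719 windows. AP-1 (TGANTCA) had a match in 6.12%, PU.1 (GAGGAAGT) in 3.48%, interferon-stimulated response elements in 2.50% and the TATA box (TATAAA) in 6.40%, against 7.85%, 3.22%, 3.45% and 13.7% of all windows. Windows at regions called in all 8 lists had 5.38%, 3.92%, 2.93% and 5.35% in the same order. The cyclic AMP element (TGACGTCA) had 3.89%, NRF1 (GCGCATGCG) 3.76%, YY1 (AAGATGGCG) 4.31% and the E-box (CACGTG) 11.8%, against 1.80%, 1.74%, 1.40% and 7.20% of all windows. At regions called in all 8 lists these motifs had 3.68%, 4.22%, 3.03% and 10.2%. Windows with a hypoxia response element core were thus no more frequent here than at regions called in all 8 lists. A match is a match of letters and not a bound site, and the sequence of regions away from starts was not used here.

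The 6 libraries that carry the regions differ in list length, so their shares were compared in lists of equal length, the 9910 strongest peaks of each. Such lists held 33.6% and 28.7% of the 2026 regions in monoculture hypoxia, 35.3% and 35.6% in co-culture normoxia, and 44.6% and 49.1% in co-culture hypoxia. The group means were 31.1% ± 3.42, 35.5% ± 0.175 and 46.8% ± 3.21 (SD, n = 2 each), and the co-culture hypoxia libraries stood above all 4 others. Co-culture hypoxia exceeded the other 2 groups by 13.5 percentage points (two-sided exact permutation test over libraries, p = 0.0667, the smallest that 2 against 4 can give, and 0.4 after Benjamini-Hochberg adjustment over 6 comparisons). Against co-culture normoxia alone it was 11.4 points higher and against monoculture hypoxia 15.7 points higher (exact permutation p = 0.333 for both, the smallest that 2 against 2 can give, adjusted 0.4). The regions were chosen by peak calls in these same 6 libraries and by their absence from monoculture normoxia. How far that choice sets the order of the groups was not tested, and the p-values do not account for it.

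Monoculture hypoxia was lower, differing from the other 2 groups by -10.0 points (exact permutation p = 0.133, adjusted 0.4) and from co-culture normoxia by -4.32 points (exact permutation p = 0.333, adjusted 0.4). Co-culture normoxia differed from the other 2 by -3.53 points (exact permutation p = 0.667, adjusted 0.667). With peaks ranked by fold, the excess of co-culture hypoxia over the other 2 groups was 6.49 points (exact permutation p = 0.2), that over co-culture normoxia 3.60 (exact permutation p = 0.667) and that over monoculture hypoxia 9.38, and the difference of co-culture normoxia from the other 2 turned to 1.09. With lists of 5000 peaks, monoculture hypoxia exceeded co-culture normoxia by 2.79 points, and the differences of monoculture hypoxia and of co-culture normoxia from the other 2 groups were -3.91 and -8.09. No comparison passed 0.05, which this design cannot reach.

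Regions at gene ends and regions elsewhere took different shares of these lists. Of the 847 gene-end regions, equal-length lists held 27.3% and 18.3% in monoculture hypoxia, 37.4% and 45.2% in co-culture normoxia, and 49.9% and 64.6% in co-culture hypoxia. Of the 1179 others they held 38.1% and 36.2%, 33.8% and 28.7%, and 40.7% and 38.0%. Gene-end regions were therefore the less frequent kind in both monoculture hypoxia lists, with gaps of -10.8 and -17.9 points, and the more frequent kind in all 4 co-culture lists, by 3.58 and 16.6 points in normoxia and 9.23 and 26.6 in hypoxia. The split by gene ends was chosen after the values were seen, so these gaps are a description.

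Regions called in all 8 lists showed the same sign of the gap but another order of the groups. Of regions called in all 8 lists, equal-length lists held 74.7% ± 2.61, 92.3% ± 1.99 and 83.3% ± 4.78 (SD, n = 2 each) of those at gene ends in monoculture hypoxia, co-culture normoxia and co-culture hypoxia, and 77.9% ± 0.607, 78.1% ± 1.82 and 63.8% ± 0.450 of the others. Gene ends were thus the less frequent kind in monoculture hypoxia in both sets of regions, while co-culture normoxia, not co-culture hypoxia, held the largest share of gene ends among regions called in all 8 lists.

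**Figure D4:**
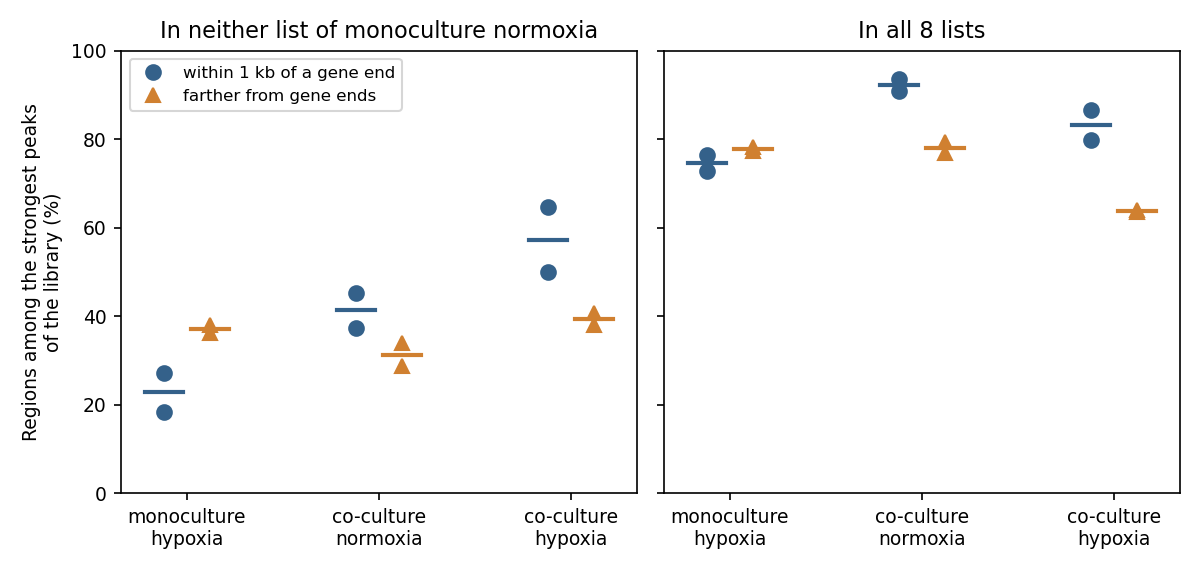
Percent of regions found among the 9910 strongest peaks of a library (y axis) in 3 groups (x axis), for regions in neither list of monoculture normoxia (left) and in all 8 lists (right). Points are libraries and bars are means of 2, and in the left panel gene-end regions lie below the others in monoculture hypoxia (22.8% and 37.2%) and above them in co-culture hypoxia (57.3% and 39.4%).

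Few regions were strong in 1 group alone. Of the 2026, 570 (28.1%) were in none of the 6 equal-length lists and 198 (9.77%) in all 6. Both lists of co-culture hypoxia and no other held 106 (5.23%), both lists of monoculture hypoxia and no other 43 (2.12%), and both lists of co-culture normoxia and no other 27 (1.33%).

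The regions were spread thinly over genes. A region lay in or within 1 kb of 1572 of 21631 protein-coding genes (7.27%), within 5 kb of 1866 (8.63%) and within 10 kb of 2236 (10.3%, or 14.7% of the 15212 genes with any merged region that close). Of these genes 2067 had 1 region, 156 had 2, 12 had 3 and 1 had 4. Starts in the promoter table were found for 1789 of the 2236 genes, and 800 of these (44.7%) had a region within 1 kb of a start. For 775 of the 800, no region called in monoculture normoxia lay within 1 kb of any start. The rule itself keeps such peaks out of the region at the start, so this count is a description. Of the other 989 genes, 205 (20.7%) had a start already called in both lists of monoculture normoxia, close to the 20.5% of all 17274 genes with a start.

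Most of the genes named for having 3 or more regions were long. The gene 1700025G04Rik had 4 regions over 206598 bp, the strongest of them at chr1:152025082-152025706 with percentiles of 80.9 and 83.1 in monoculture hypoxia, 56.8 and 41.1 in co-culture normoxia and 87.8 and 83.4 in co-culture hypoxia. In this region both hypoxic groups ranked above co-culture normoxia without overlap. None of its 4 regions was among the strongest peaks of all 6 libraries. Akap13, which anchors protein kinase A, had 3 inside the gene, of 15 regions in all, 2 of them called in all 8 lists. Cd200r3, a myeloid receptor of the CD200 receptor family, Nav1, a neuron navigator, and Elapor2 had 3 each, and 1 of those of Elapor2 straddled its start.

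In Nav1 the region chr1:135593755-135594658 had percentiles of 87.5 and 72.6 in monoculture hypoxia, 14.6 and 34.3 in co-culture normoxia and 92.8 and 79.8 in co-culture hypoxia, so that both hypoxic groups stood above co-culture normoxia without overlap. Nedd4l, a ubiquitin ligase of ion channels, had 3 within its 333347 bp on chromosome 18. For Col4a2, a collagen of basement membranes, 2 regions lay in the gene and the third beyond its end, 139 bp from Rab20. Pdpk1, the kinase that activates AKT, had 1 inside the gene, 1 at its border with Kctd5, and 1 beyond its other end over the start of Amdhd2.

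The short ones among them lay in a cluster on chromosome 7. Hspb6, a small heat shock protein of 2909 bp, and Lin37, a subunit of the DREAM complex of cell cycle genes of 4281 bp, shared the same 3 regions. The first, chr7:30551714-30553060, covers the start of Proser3 and reaches into Hspb6, with percentiles of 77.6 and 80.4 in monoculture hypoxia, 53.2 and 75.8 in co-culture normoxia and 96.7 and 91.7 in co-culture hypoxia. The next, chr7:30559202-30559955, covers the start of Lin37 with 67.3, 83.4, 70.4, 43.6, 94.0 and 79.2 in the same order. The last, chr7:30563182-30563786, covers the start of Psenen, a subunit of gamma-secretase, and had no percentile above 38.4.

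Genes of 9 lists drawn up for microglia, hypoxia and glioma were looked up next. Of the 251 list genes found, 24 had a region in them or within 1 kb (9.56%, against 7.27% of all protein-coding genes) and 32 within 10 kb (12.7%, against 10.3%). Among list genes with any merged region within 10 kb the share was 13.7%, against 14.7% of all such genes, so the lists as a whole lay at the background. By list, the share within 10 kb ran from 6.25% of interferon and antigen presentation genes (2 of 32) to 7 of 28 lipid, lysosome and phagocytosis genes. With the regions found in lists of equal number, 4 of the 251 genes had a region within 10 kb, and 1.33% of all genes did.

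Of 35 hypoxia targets, 3 had a region within 10 kb (8.57%, against 10.3% of all protein-coding genes and 14.7% of those with any merged region). All 3 had it within 1 kb, where all protein-coding genes had 7.27%, so the list lay near the background. In each case the region covered the start, and Vegfa, Slc2a1 and Ldha were among the genes with none. Pdk1, the kinase that turns pyruvate away from mitochondria, has chr2:71872665-71873584, with percentiles of 82.3 and 83.9 in monoculture hypoxia, 52.3 and 70.6 in co-culture normoxia and 97.0 and 94.1 in co-culture hypoxia. Both hypoxic groups stood above co-culture normoxia there, as in 18.2% of all 2026 regions. The summit held 48 and 53 fragments, 24 and 36, and 120 and 103.

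Ddit4, which restrains mTORC1 under stress, has chr10:59951581-59952384, with percentiles of 38.8 and 39.6 in monoculture hypoxia, 73.1 and 74.0 in co-culture normoxia and 84.2 and 79.5 in co-culture hypoxia. P4ha1, a prolyl hydroxylase of collagen, has chr10:59322925-59323734, with 13.6 and 18.6 in monoculture hypoxia, 34.1 and 51.1 in co-culture normoxia and 75.9 and 75.6 in co-culture hypoxia. At both genes the co-culture libraries ranked above the monoculture hypoxia libraries, as in 16.7% of all 2026 regions. All 3 windows with their matches are among the sequences printed above.

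Of 22 genes of oxygen sensing and histone demethylation, 1 had a region within 1 kb (4.55%, against 7.27% of all protein-coding genes) and 4 within 10 kb (18.2%, against 10.3%, or 14.7% of genes with any merged region). Kdm2a, an oxygen-dependent demethylase that binds CpG islands, had 2, both inside the gene. The pair at chr19:4333702-4334448 and chr19:4396842-4397577 had its highest percentiles in co-culture hypoxia, 80.3 and 65.9 at the former and 74.5 and 90.4 at the latter, above all 4 other libraries at each. The other genes, with a region between 1 and 10 kb away, were Arnt2, a partner of HIF subunits, Hif1an, the hydroxylase that inhibits HIF, and Kdm5a, a demethylase.

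**Figure D5:**
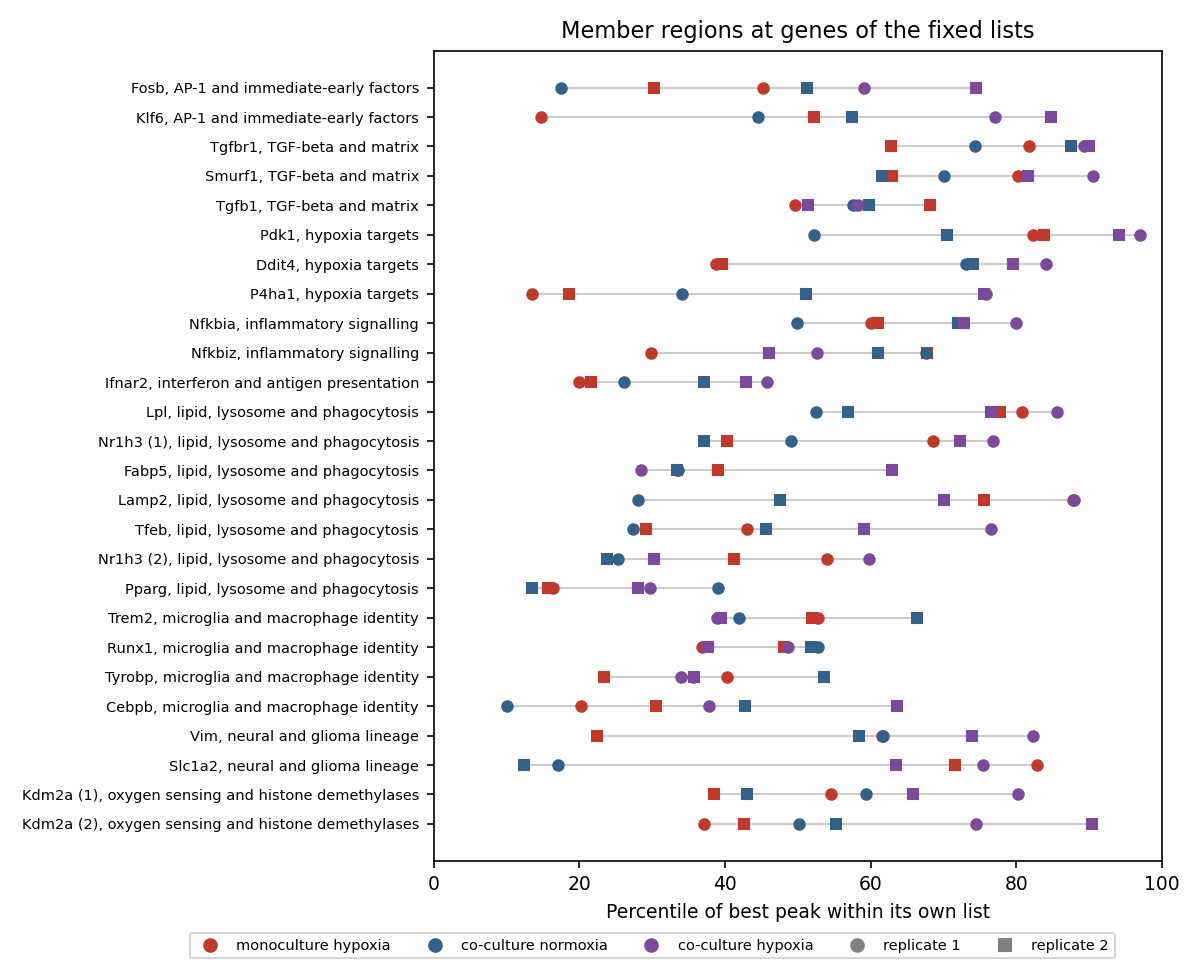
Percentile of the best peak within its own list (x axis) for the regions at or within 1 kb of named list genes (y axis, gene and list), with colours for groups and symbols for replicates. P4ha1 runs from 13.6 in monoculture hypoxia to 75.9 in co-culture hypoxia, while Tgfb1 stays between 49.6 and 68.2 in all 6 libraries.

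Microglia and macrophage identity genes had a region in 5 of 31 cases (16.1%), against 7.27% of all protein-coding genes within 1 kb and 10.3% within 10 kb. Among genes with any merged region within 10 kb the shares were 17.2% and 14.7%, close to each other. The highest ranked was at the start of Tgfbr1, the type I receptor of TGF-beta on which microglial identity depends, at chr4:47352580-47353528. It had percentiles of 81.7 and 62.8 in monoculture hypoxia, 74.3 and 87.5 in co-culture normoxia and 89.3 and 90.0 in co-culture hypoxia, and was among the strongest peaks of all 6 libraries. Trem2, a lipid-sensing receptor, had a region over its start, chr17:48346122-48346899, with 52.8 and 52.0, 41.9 and 66.4, and 38.9 and 39.5 in the same order. There the co-culture hypoxia pair was the lowest of the 6.

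Tyrobp, the signalling adaptor of Trem2, had a region over an end of the gene, chr7:30412734-30414139, with percentiles from 23.3 to 53.6. In Runx1, a factor of myeloid development, the region chr16:92675556-92676193 lay 21136 bp from the nearest start, with 36.8 to 52.8. At the start of Cebpb, the fifth gene of the list and a factor of inflammatory macrophages, percentiles ran from 10.1 to 63.6. None of these 3 regions had a percentile above 63.6, and at Runx1 the co-culture normoxia pair was the highest. A merged region within 10 kb was present for 29 of the 31 identity genes and for 23 of the 30 neural and glioma genes.

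The lipid, lysosome and phagocytosis list had regions at or within 1 kb of 6 of 28 genes (21.4%, against 7.27% of all protein-coding genes) and within 10 kb of 7 (25.9% of the list's genes with any merged region, against 14.7% of all such genes). No test was made across genes. Lpl, the lipase that releases fatty acids from lipoproteins, had chr8:68880086-68880712 over an end of the gene, with percentiles of 80.8 and 77.7 in monoculture hypoxia, 52.6 and 56.9 in co-culture normoxia and 85.6 and 76.6 in co-culture hypoxia. Lamp2, a lysosomal membrane protein, had a region inside the gene, chrX:38431125-38431567, with 87.8 and 75.6, 28.1 and 47.6, and 87.9 and 70.0. In both genes the hypoxic libraries stood above the co-culture normoxia libraries, an order found in 18.2% of all 2026 regions.

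Nr1h3, the oxysterol receptor LXR alpha, had 2 regions, and that at chr2:91202143-91203019, shared with the start of Acp2, had its highest values in co-culture hypoxia (76.9 and 72.4). Fabp5, a fatty acid carrier, had percentiles from 28.5 to 62.9. The rest of the list were Tfeb, the master factor of lysosome genes, with 27.4 to 76.5 at its start, and Pparg, a fatty acid receptor, with 13.5 to 39.1 inside the gene. Lgals3 had a region between 1 and 10 kb away.

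In the TGF-beta and matrix list 3 of 27 genes had a region. Besides Tgfbr1 these were Smurf1, a ubiquitin ligase of the pathway, with percentiles from 61.6 to 90.5 inside the gene, and Tgfb1, the ligand itself. The Tgfb1 region, chr7:25689094-25689807, lay 2092 bp inside the gene from its start and had 49.6 and 68.2 in monoculture hypoxia, 57.6 and 59.8 in co-culture normoxia and 58.3 and 51.4 in co-culture hypoxia. The 3 groups overlapped there. The list's 11.1% lay near the 10.3% of all protein-coding genes within 10 kb and below the 14.7% of genes with any region. Within 1 kb the list also had 11.1%, against 7.27% of all protein-coding genes.

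Inflammatory genes with a region within 1 kb were Nfkbia, which holds NF-kappaB in the cytoplasm, and Nfkbiz, a nuclear regulator of the same factor. They were 2 of 30 (6.67%, against 7.27% of all protein-coding genes), and 4 had a region within 10 kb (13.3%, against 10.3%, or 14.7% of genes with any merged region), so the list lay near the background. The Nfkbia region, chr12:55491759-55492880 over the start, had percentiles of 60.0 and 61.1 in monoculture hypoxia, 49.9 and 72.1 in co-culture normoxia and 80.0 and 72.9 in co-culture hypoxia, where it was highest. Nfkbiz had 29.9 and 67.7 in monoculture hypoxia, 67.6 and 61.0 in co-culture normoxia and 52.6 and 46.0 in co-culture hypoxia. Il1b and Cxcl2, a cytokine and a chemokine, had a region between 1 and 10 kb away.

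AP-1 and immediate-early genes had 2 of 21 within 1 kb (9.52%, against 7.27% of all protein-coding genes) and 3 within 10 kb (14.3%, against 10.3%, or 14.7% of genes with any merged region), which is near the background. Klf6, a zinc finger factor induced by injury, had chr13:5861159-5861652 over its start, with percentiles of 14.8 and 52.2, 44.5 and 57.5, and 77.1 and 84.8 in the same order, and Fosb, a subunit of AP-1, had chr7:19307865-19308865 with 45.2 and 30.3, 17.4 and 51.2, and 59.1 and 74.5. Co-culture hypoxia stood above the other 4 libraries at both, as in 30.3% of all 2026 regions. Of the 32 interferon and antigen presentation genes, 1 had a region within 1 kb (3.13%, against 7.27%) and 2 within 10 kb (6.25%, against 10.3%). Ifnar2, a chain of the interferon alpha receptor, had a region at its end with percentiles of 19.9 to 45.9, which also overlapped the gene Il10rb. Ifnar1 had one between 1 and 10 kb away. Interferon-stimulated genes on the list had none.

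Of 30 neural and glioma genes, 2 (6.67%) had a region within 1 kb, near the 7.27% of all protein-coding genes, and none further had a region within 10 kb, where all genes had 10.3%. They were Vim and Slc1a2, and none of Gfap, Olig1, Olig2, Sox2 or Sox10 did. Vim, an intermediate filament gene that macrophages also express, had a region at its start with percentiles from 22.4 to 82.4. In Slc1a2, a glutamate transporter of astrocytes, the region chr2:102760054-102760876 had 82.9 and 71.7 in monoculture hypoxia, 17.0 and 12.4 in co-culture normoxia and 75.4 and 63.5 in co-culture hypoxia. At Slc1a2 the hypoxic libraries stood above the co-culture normoxia libraries, as in 18.2% of all 2026 regions. How many GL261 cells passed the sort was not tested.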

How the data were processed

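Each library came with its own narrowPeak list, as the authors deposited it, so calling was not done on pooled replicates. Reads were trimmed, aligned and called with tools that include Trimmomatic 0.36, HISAT2 2.1.0 and MACS2 2.1.1.2 on mm10, per the submitters' processing notes, and any shift for Tn5 is not given in the sources used here. Each deposited peak has a score, a fold (a ratio of signal to background at the summit), the −log10 of its p-value and of its q-value, and the distance of its summit from its start in bp. The lowest −log10 q of each list was just above 2. These values are the authors' and were used only to rank, filter or describe peaks within a list.

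No read totals were used here. Fragments at a summit and background coverage were solved from the deposited fold and −log10 p on the assumption of a Poisson background, which gave back the p-value to within 0.001 for 99.8% to 99.9% of peaks with −log10 p up to 250. The solver was also tested on simulated data.

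The regions and gene lists were chosen with earlier results of these data known, and 1 gene (Mx1) was not found. Named regions were the 10 with the highest minimum percentile, the 3 just inside and 3 just outside the rule, the 10 genes with most regions within 10 kb (ties by symbol) and, per list, up to 4 genes with a region within 1 kb. The widest region, Proser3, Psenen, Cebpb, Tfeb, Pparg and the list genes between 1 and 10 kb fall outside this rule and were named after their values were seen, as was the split by gene ends in the equal-length lists. Genes (49554, of which 21631 protein-coding) and 32585 start windows came from RefSeq GRCm38.p6, the build that mm10 names. The windows cover 26794 genes and lack all starts on chromosome 18, where 51 regions lie. They also lack starts of genes elsewhere, among them Lpl and Fabp5, so counts of regions at starts may be too low. Values were computed in Python 3.11.15 with pandas 2.3.3, numpy 2.4.6 and scipy 1.17.1, and plots were drawn in matplotlib 3.10.9. Groups were compared by two-sided exact permutation of libraries, and p-values measure the spread between replicate cultures.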

Additional observations from a re-analysis of the deposited data

Results flagged for a closer look

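Chromosome Y was not part of the merged regions, and the lists held 64 peaks on it in all. By library they were 7 and 7 in monoculture normoxia, 5 and 6 in monoculture hypoxia, 10 and 10 in co-culture normoxia and 11 and 8 in co-culture hypoxia. All 4 co-culture lists had more than all 4 monoculture lists, including the longer lists of monoculture hypoxia. The difference was not tested, and a peak of this kind was present in the control libraries too.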

How the results depend on the processing

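The number of regions, 2026, moved with list length and with the control libraries. Lists of equal number gave 220 regions, and leaving out a library gave 2082 to 4481, the highest without monoculture normoxia replicate 1. Stricter peaks (−log10 q of 3 or 5), equal coverage, windows around summits, no peaks over 10 kb and peaks covering at least 0.5 of a region gave counts from 1823 to 2175, though the last setting shared only 55.6% of the 2026 regions. The share at gene ends, 41.8%, was 47.7% in lists of equal number, 45.9% with peaks covering at least 0.5 of a region, 39.4% at 500 bp, 45.0% at 2 kb, and 36.1% to 44.2% with a library left out. List genes with a region, 32, became 66 at 50 kb (21.2% of all genes had one) and 4 in lists of equal number. The difference between monoculture hypoxia and co-culture normoxia reversed to 2.79 points with lists of 5000 peaks, and that of co-culture normoxia from the other 2 groups reversed to 1.09 points with peaks ranked by fold. The cause was not tested for any of these. With a library left out, no difference in the equal-length lists changed sign. That of co-culture hypoxia from the other 2 groups ran from 11.3 to 15.8 points, from co-culture normoxia from 9.11 to 13.6 and from monoculture hypoxia from 13.3 to 18.1. That of monoculture hypoxia from the other 2 groups ran from -12.4 to -7.35 and from co-culture normoxia from -6.74 (without monoculture hypoxia replicate 1) to -1.90 (without replicate 2). That of co-culture normoxia from the other 2 ran from -6.95 (without monoculture hypoxia replicate 2) to -0.156 (without co-culture hypoxia replicate 2). With peaks ranked by fold, that of co-culture hypoxia from the other 2 groups was 6.49 points (exact permutation p = 0.2).

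Permuting within replicate numbers (the replicate block) left the differences as they were, with co-culture hypoxia 13.5 points above the other 2 groups (exact permutation p = 0.111), and no comparison passed 0.05 with or without it. Same-numbered libraries deviated together weakly or not at all (r = 0.0299, -0.0128 and 0.157 over the 2026 regions). Correlations over chosen regions cannot decide whether same-numbered libraries were prepared together. Motifs in whole regions were not run because no genome was used here. Regions that met the rule overlapped 89.5% of the 2026 when lists were scaled to equal coverage, which left them unequal in length (13325 and 9494 peaks in monoculture normoxia against 19429 to 28026), and 9.77% in lists of equal number. The part of depth in the absences is not settled by these settings.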
